A study of Homo sapiens with 10 samples.

Results

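The Wnt ligands, receptors and effectors form a set of 54 human genes out of 20056 protein-coding genes. They were chosen by symbol and comprise the numbered WNT, FZD, DVL, DKK and SFRP genes together with LRP5, LRP6, AXIN1, AXIN2, APC, TCF7, TCF7L1, TCF7L2, LEF1, RNF43, ZNRF3, LGR4, LGR5 and LGR6. RNA 5-methylcytosine (m5C) was mapped by MeRIP-seq, in which an antibody against m5C pulls down methylated RNA fragments for sequencing, in untreated cultures of MDA-468, a breast cancer line of basal type, and of MCF-10A, an immortalised, non-tumorigenic mammary epithelial line. By their titles, the 10 libraries comprise 2 MeRIP and 2 input libraries of MDA-468, 2 MeRIP and 2 input libraries of MCF-10A, and 2 technical replicates of the MCF-10A MeRIP. Each line stands for 1 culture history, the culture text given for every sample, MCF-10A included, speaks of MDA-MB-468, and the labels do not tell whether replicates are separate cultures. The data are 1 merged site list for each line and 1 differential table, so no value has a replicate error and the depth is unknown. Below, a site is a stretch of exon called as enriched in MeRIP over input, and its peak p-value is the authors' own.

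A Wnt protein binds a Frizzled (FZD) receptor and an LRP5 or LRP6 co-receptor at the cell surface. The signal passes through a Dishevelled (DVL) protein and blocks a cytoplasmic complex built on AXIN and APC, which otherwise marks beta-catenin for destruction. Stabilised beta-catenin then enters the nucleus and acts with TCF/LEF factors on target genes. DKK and SFRP proteins block the signal outside the cell, RNF43 and ZNRF3 remove Frizzled receptors from the surface, and LGR receptors bind R-spondins, which restrain RNF43 and ZNRF3. In the mammary gland the pathway is known for its part in ductal growth and stem cell maintenance, and the mouse gene Wnt1 was found as an oncogene of mammary tumours.

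Of the 54 Wnt genes, 15 (27.8%) had an m5C site in MDA-468 and 9 (16.7%) had one in MCF-10A. The shares over all protein-coding genes were 22.4% in MDA-468 and 15.2% in MCF-10A, so both counts of Wnt genes lay near the background. A further 39 Wnt genes had no site in either list, which does not show that they lack m5C, since transcript levels were not analysed here. All 9 genes with a site in MCF-10A (WNT7B, FZD2, FZD3, FZD4, ZNRF3, DVL3, AXIN2, TCF7 and TCF7L2) also had one in MDA-468. Another 6 genes (WNT1, WNT3A, FZD10, LRP5, TCF7L1 and LEF1) had a site in MDA-468 only, and 0 Wnt genes had a site in MCF-10A only. The background over protein-coding genes was 12.3% for both lists, 10.1% for MDA-468 only and 2.87% for MCF-10A only. Counted over genes with any site, both lists held 60.0% of the Wnt genes and 48.6% of protein-coding genes, MDA-468 alone held 40.0% of each, and MCF-10A alone held none of the Wnt genes and 11.4% of protein-coding genes. The MDA-468 list runs to a peak p-value of 2e-05 and the MCF-10A list to 3e-08. With 3e-08 as the limit in both lists, a limit chosen after the data were seen, 3 Wnt genes remained in MDA-468 only (WNT1, LRP5 and TCF7L1), while FZD10, LEF1 and WNT3A no longer had a site. At that limit 7.87% of protein-coding genes had a site in MDA-468 only.

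The families differed in how many members carried a site. All 4 TCF/LEF genes had one, 2 of them in both lists and 2 in MDA-468 only. Among the receptors, 4 of 10 FZD genes and 1 of the 2 LRP co-receptors had one. Among the ligands it was 3 of 19, and 1 gene each of the DVL proteins, the AXIN and APC group and the RNF43 and ZNRF3 pair had a site. None of the 8 secreted antagonists with a DKK or SFRP symbol and none of the 3 LGR receptors had a site in either list. FRZB, a secreted antagonist related to the SFRP proteins but outside the symbol rule, had 1 site in each line. The FRZB sites did not overlap. Over all protein-coding genes, 5067 of 20056 had a site in either list. The LEF1 site was lost under every other limit on p-value, list length and site length that was run. These family counts are small and were not tested.

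**Figure D1:**
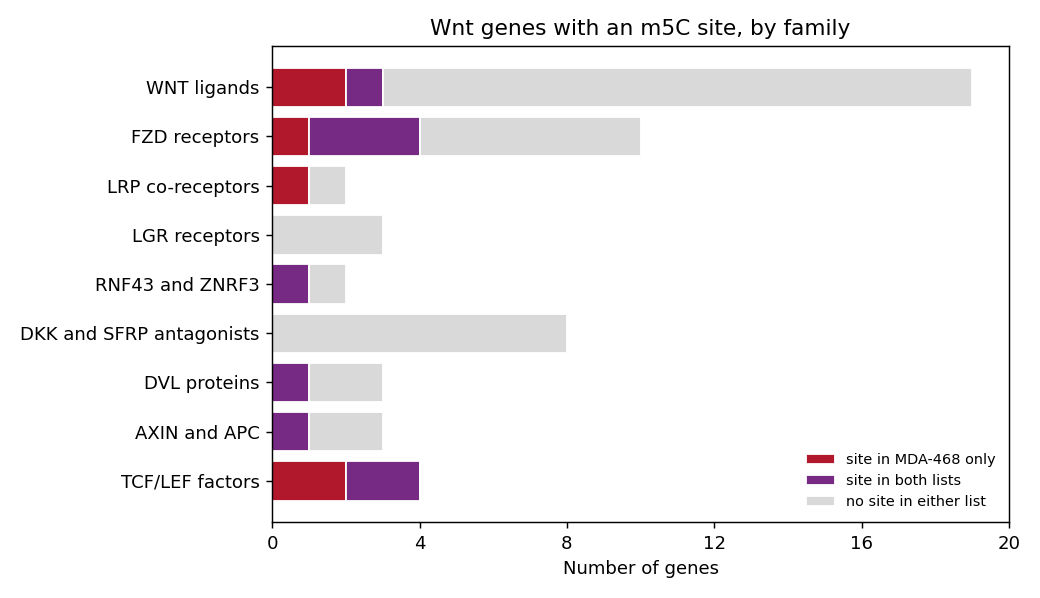
Number of genes (horizontal axis) in each family of the Wnt set (rows), split into genes with an m5C site in MDA-468 only, in both lists and in neither list. All 4 TCF/LEF genes carry a site, that of LEF1 near the end of the MDA-468 list. The 8 antagonists with a DKK or SFRP symbol carry none, and no gene has a site in MCF-10A only.

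The 54 genes held 20 sites in MDA-468 and 11 in MCF-10A, each a single exon block, as were 87.8% and 91.9% of all sites. Of the 20 MDA-468 sites, 9 (45.0%) overlapped an MCF-10A site (same strand, 1 bp or more), against 47.7% of the whole MDA-468 list. Of the 11 in MCF-10A, 9 (81.8%) overlapped an MDA-468 site, against 74.3% of all MCF-10A sites. Both shares lie near those of the whole lists. The other 11 MDA-468 sites comprised 7 in the genes with sites in MDA-468 only and 4 in genes with sites in both lists, of which 2 lay in AXIN2, 1 in ZNRF3 and 1 in TCF7L2. No site of another gene overlapped a Wnt site on either strand.

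WNT7B, which encodes a Wnt ligand, had the Wnt site that stood highest in either list. In MDA-468 it lay at chr22:46317681-46317950 (hg19, minus strand, 270 nt) with a peak p-value of 1.6e-75, rank 96 of 8320 sites. In MCF-10A it lay at chr22:46317532-46318010 (479 nt), where the peak p-value is listed as 0, below the smallest number the format can hold, as at 225 of 5194 sites. The MDA-468 site lies wholly inside the longer MCF-10A site. In the authors' deposited table the site was lower in MDA-468, with a log2 fold change of -2.74 (6.68-fold) and a false discovery rate of 1e-14 by exomePeak. That change is larger than at 89.6% of the 1406 sites lower in MDA-468.

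The other ligands with a site were both seen in MDA-468 only. WNT1, the ligand known as a mammary oncogene in mice, had a site of 238 nt at chr12:49375358-49375595 with a peak p-value of 2.5e-18, and 68.5% of the MDA-468 sites had a larger p-value. WNT3A, a ligand that acts through beta-catenin, had a site of 61 nt at chr1:228238412-228238472 with a peak p-value of 6e-06, close to the end of the list at rank 8249 of 8320. The WNT1 site thus stood well inside the list and the WNT3A site at its margin. Neither gene had a row in the authors' deposited table, so no difference between the lines was called for them.

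Among the receptors, FZD4, FZD3 and FZD2 had sites in both lines. FZD4, which also serves as the receptor of the retinal vessel factor Norrin, had a site at chr11:86657944-86658273 in MDA-468 (peak p-value 2e-34) and at chr11:86657914-86658303 in MCF-10A (1e-182). The MCF-10A site extends 30 nt further on each side. In the authors' deposited table FZD4 was lower in MDA-468 with a log2 fold change of -1.80 (3.48-fold, false discovery rate 0.000182 by exomePeak). FZD2, a receptor encoded by an intronless gene, had a site at chr17:42638153-42638332 in MDA-468 (2e-13) and at chr17:42638033-42638391 in MCF-10A (1e-121). The FZD2 site was 180 nt long in MDA-468 and 359 nt in MCF-10A, and the authors' deposited table gave a log2 fold change of -1.64 (3.12-fold, false discovery rate 0.0282 by exomePeak).

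FZD3, a receptor known for its part in axon guidance and planar cell polarity, had 2 sites in each line. The first lay at exactly the same place in MDA-468 and in MCF-10A, chr8:28424652-28424982, with peak p-values of 1e-14 in MDA-468 and 1.6e-80 in MCF-10A. It was the one Wnt site with identical ends in both lists. The second lay 2786 nt further on in MDA-468, at chr8:28427769-28428129 (3.2e-40), and at chr8:28427739-28428219 in MCF-10A (1e-287). The authors' deposited table lists the first FZD3 site as lower in MDA-468, with a log2 fold change of -1.63 (3.10-fold, false discovery rate 0.0219 by exomePeak), and has no row for the second. A row exists only where the authors' test passed, so the size of any difference at the second site is not known here. FZD10, a receptor, had a site in MDA-468 only, of 91 nt at chr12:130648137-130648227, with a peak p-value of 1.6e-06, near the end of the list at rank 8046. FZD10 had no row in the authors' deposited table.

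LRP5, a co-receptor whose human variants alter bone mass, had a site of 151 nt in MDA-468 only, at chr11:68216324-68216474 (peak p-value 2.4e-09, with 25.6% of MDA-468 sites at a larger p-value). LRP5 had no row in the authors' deposited table. ZNRF3, the membrane ubiquitin ligase that removes Frizzled, had 2 sites in each line but shared only 1 of them. The shared site lay at chr22:29452098-29452428 in MDA-468 (2e-20) and at chr22:29452008-29452428 in MCF-10A (2.5e-98), with the same downstream end. The second MDA-468 site lay 6672 nt upstream, at chr22:29445365-29445425 (1.2e-10). The second MCF-10A site lay 118 nt upstream of the shared one, at chr22:29451649-29451889 (1e-17). No ZNRF3 site was listed as different in the authors' deposited table.

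In the cytoplasm, DVL3, a Dishevelled protein that relays the signal from Frizzled, had 1 site in each line with a common end, at chr3:183890267-183890446 in MDA-468 (peak p-value 2e-12) and at chr3:183890237-183890446 in MCF-10A (7.9e-33). AXIN2, a scaffold of the destruction complex and itself a target gene of the pathway, had 3 sites in MDA-468 and 1 in MCF-10A. The shared AXIN2 site lay at chr17:63525401-63525670 in MDA-468 (1.6e-12) and at chr17:63525431-63525610 in MCF-10A (1.3e-19). It was the one shared Wnt site that was longer in MDA-468, with 270 nt against 180 nt in MCF-10A. The 2 further MDA-468 sites lay at chr17:63525969-63526149 (1e-08) and chr17:63532551-63532670 (3.2e-11). These 2 sites overlapped no row of the authors' deposited table. In the authors' deposited table AXIN2 had the largest change among the Wnt sites lower in MDA-468, a log2 fold change of -3.26 (9.58-fold) with a false discovery rate of 0.0132 by exomePeak, larger than at 95.1% of the 1406 sites of that direction. AXIN2 therefore had more sites in MDA-468 than in MCF-10A, while its shared site was listed as lower in MDA-468.

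**Figure D2:**
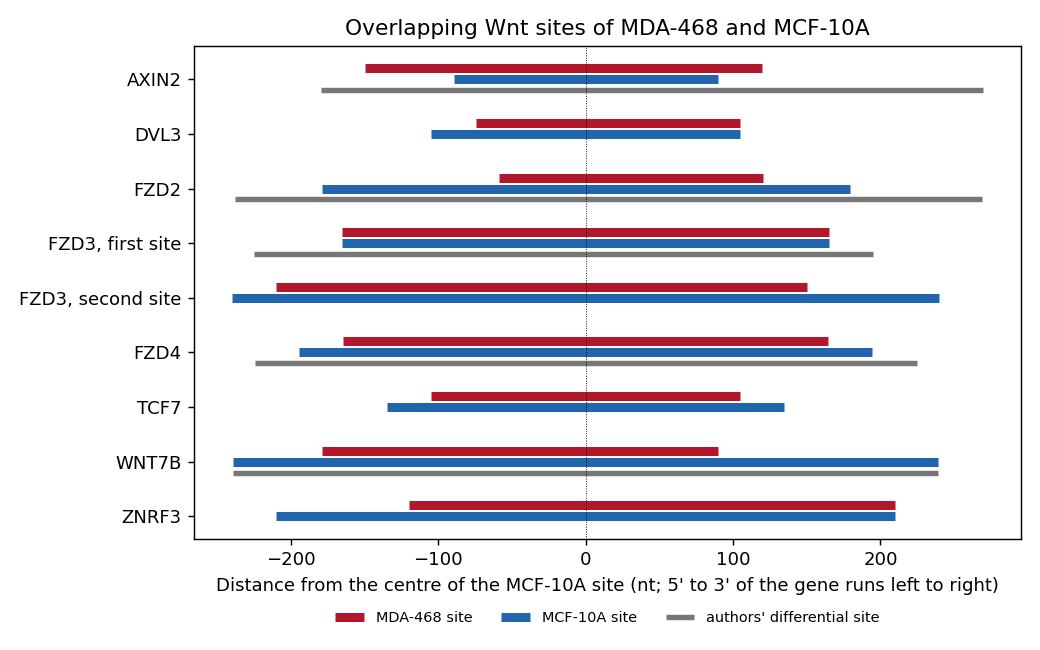
Extent of the 9 pairs of overlapping Wnt sites (rows) as distance in nt from the centre of the MCF-10A site, with the MDA-468 site above the MCF-10A site and, where one exists, the site of the authors' deposited differential table below both. In 8 of 9 pairs the MDA-468 site lies inside the MCF-10A site, and the AXIN2 site is the exception.

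The nuclear TCF/LEF factors bind DNA and recruit beta-catenin. TCF7, best known from T cells, had 1 shared site, at chr5:133483382-133483591 in MDA-468 (peak p-value 4e-18) and at chr5:133483352-133483621 in MCF-10A (1e-54), with no row in the authors' deposited table. TCF7L1, a family member that acts largely as a repressor, had 2 sites in MDA-468 only, 386 nt apart at chr2:85536261-85536410 (1.5e-08) and chr2:85536797-85536975 (1.6e-11). LEF1 had a site of 60 nt in MDA-468 only, at chr4:109087773-109087832 (1.6e-06), among the weakest of the list. The TCF7 and TCF7L1 sites thus had p-values under 3e-08, where the MCF-10A list ends, and the LEF1 site did not. Neither TCF7L1 nor LEF1 had a row in the authors' deposited table, so no difference between the lines was called for them.

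TCF7L2, the main TCF factor of many epithelia, had 1 site in each line, but the sites did not overlap. The MDA-468 site lay at chr10:114925586-114925735 (peak p-value 3.2e-13) and the MCF-10A site 36000 nt upstream, at chr10:114889406-114889585 (6.3e-19). The authors' deposited table lists TCF7L2 as the single Wnt gene with a higher site in MDA-468, with a log2 fold change of 2.60 (6.06-fold), a false discovery rate of 0.00049 by exomePeak and a fold enrichment over input of 7.49. That row spans chr10:114919705-114925735 in 4 exon blocks of 47, 73, 25 and 422 nt and ends where the MDA-468 site ends. The TCF7L2 change is larger than at 36.8% of the 389 sites higher in MDA-468. The MCF-10A site of TCF7L2 has no row.

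The place of the MDA-468 site within the TCF7L2 transcript could be read from the blocks. The intron lengths between them (626, 887 and 3951 nt) and the 2 inner block lengths matched exactly 1 stretch of exons in the GENCODE v29 transcripts of TCF7L2, that of transcript TCF7L2-212, so the 422-nt block begins at the first base of the last exon. The MDA-468 site then covers bases 273 to 422 of that exon, if the exon has no insertion or deletion between the builds. Of 16 protein-coding TCF7L2 transcripts that end in this exon, 7 carry the stop codon inside the site, with base 415 as the last coding base. In these, the site covers the last 143 coding nt and the stop codon, and in 6 of the 7 it runs 4 nt further, while 1 ends with the stop codon. In 5 others coding ends at base 77 or 78 of the exon and in 4 it ends before the exon. Of these 9, 6 reach into the site, which lies after their stop codon, and 3 end before it. The long reading of this exon gives the C-terminal tail of TCF7L2 that is known to bind the co-repressor CtBP. The matched transcript TCF7L2-212 is not among the 16 protein-coding transcripts, so whether the site is coding in it is not known here. The part of the site that is coding in transcript TCF7L2-206 (GENCODE v29, plus strand) is shown. It is the reference sequence under the one Wnt site that was higher in MDA-468, in lower case, 5′ to 3′, with the stop codon in capitals.
TCF7L2, MDA-468 site: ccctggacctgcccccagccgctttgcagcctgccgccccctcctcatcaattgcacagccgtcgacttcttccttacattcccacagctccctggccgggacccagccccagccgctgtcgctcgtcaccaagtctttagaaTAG

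All 9 shared Wnt sites had the smaller peak p-value in MCF-10A, as did 96.8% of the 4133 overlapping pairs of all genes. The median lengths of the shared Wnt sites were 270 nt in MDA-468 and 359 nt in MCF-10A, and the medians over all pairs were 240 nt and 329 nt. The MDA-468 site lay wholly inside the MCF-10A site in 8 of 9 Wnt pairs (88.9%) and in 82.3% of all pairs. The differences between the Wnt pairs and all pairs were not tested. A peak p-value depends on depth, so the place of a site within its own list was also taken, as the share of sites of that list with a larger p-value. By this measure the Wnt site stood higher in the MCF-10A list in 2 of 9 pairs (22.2%), FZD2 and the first FZD3 site, and over all pairs this held for 37.5%. The 225 MCF-10A sites with a p-value listed as 0 tie at 95.7%, the highest value possible in that list. The WNT7B site is one of them and stood above 98.8% in MDA-468, so its order between the lists cannot be told. The tie takes in 221 shared MCF-10A sites, so it bears on the share over all pairs too. The FZD2 site stood above 51.6% of the list in MDA-468 and above 75.5% in MCF-10A. The shared AXIN2 site stood above 47.1% in MDA-468 and above 17.4% in MCF-10A.

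**Figure D3:**
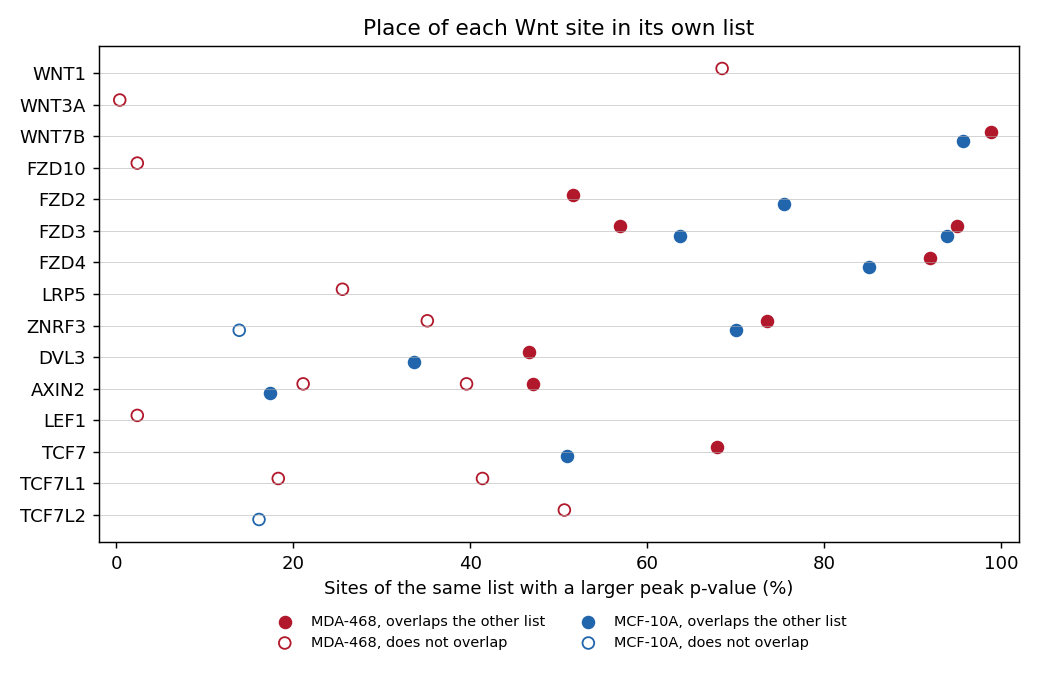
Place of each Wnt site in its own list, as the percentage of sites of that list with a larger peak p-value (horizontal axis), for each gene (rows), with MDA-468 sites just above MCF-10A sites. Filled points overlap a site of the other list and open points do not. The WNT7B, FZD4 and second FZD3 sites lie above 85% in both lists, and the WNT3A, FZD10 and LEF1 sites lie below 3% of the MDA-468 list.

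The sites of MDA-468 that overlapped no MCF-10A site were shorter and had larger p-values than the shared ones. Their median length was 150 nt, against 270 nt for the shared Wnt sites of MDA-468, and their median of -log10 peak p-value was 8.62 against 17.4. Over all MDA-468 sites these medians were 149 nt and 9.59 for the sites that overlapped none, and 240 nt and 18.3 for the shared ones. WNT1 had the smallest p-value of the 11, and WNT3A the largest.

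In the authors' deposited table, 5 of the 15 Wnt genes with a site (33.3%) had a row lower in MDA-468 and 1 (6.67%) had a row higher in MDA-468. Among all protein-coding genes with a site, 19.6% had a row lower in MDA-468 and 5.74% one higher in MDA-468. Of the 9 shared Wnt sites of MCF-10A, 5 overlapped a differential row, against 34.9% of all shared MCF-10A sites. With so few genes these shares were not tested. The direction had to be read from the data, since the title line of that table and the name it was deposited under give opposite directions. Of the 389 positive rows, 381 overlapped an MDA-468 site and 19 an MCF-10A site, and of the 1406 negative rows, 1221 overlapped an MDA-468 site and 1334 an MCF-10A site. Positive values were therefore taken as higher in MDA-468, and every signed fold change given here rests on that reading. The median log2 fold change of the 5 Wnt rows lower in MDA-468 was -1.80 in the authors' deposited table, and that of all 1406 rows of this direction was -1.96. Besides WNT7B and AXIN2, the FZD4, FZD2 and FZD3 changes were larger than at 34.6%, 20.1% and 19.8% of these 1406 rows. Fold enrichment over input ran from 10.8 (AXIN2) to 27.6 (FZD2) at these 5 sites. The table does not say to which line this enrichment refers. In these bulk samples, fewer cells with the mark and less mark per cell cannot be told apart, and neither can a change of methylation from one of the transcript's level beyond the authors' use of the input.

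**Figure D4:**
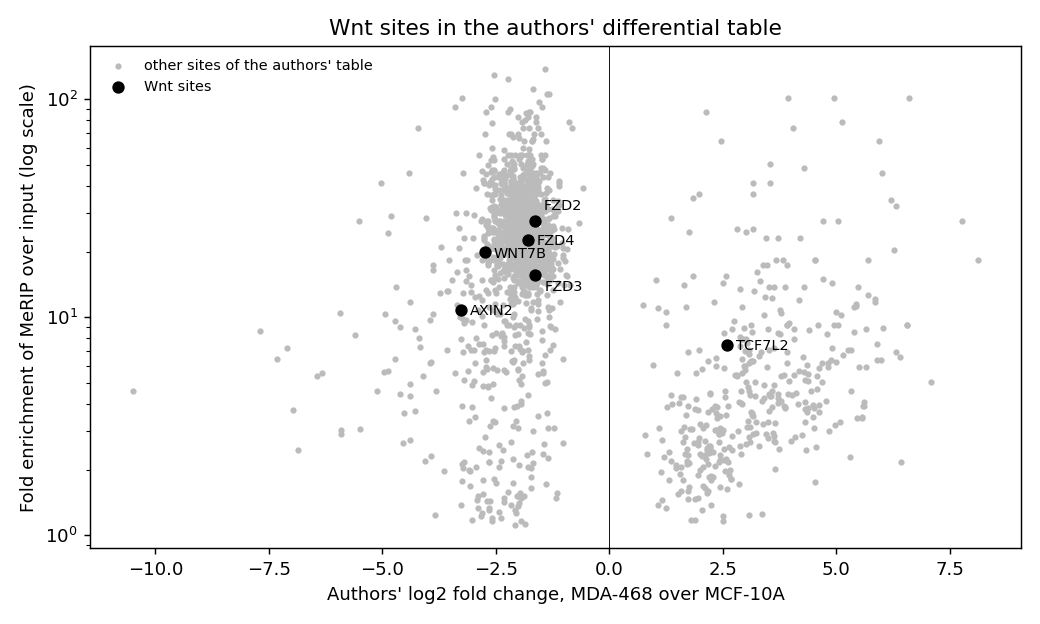
Log2 fold change of MDA-468 over MCF-10A (horizontal axis) against fold enrichment of MeRIP over input (vertical axis, log scale) for the 1795 sites of the authors' deposited table, with the 6 Wnt sites in black. The 5 sites of AXIN2, WNT7B, FZD4, FZD2 and FZD3 lie below 0 and the TCF7L2 site lies at 2.60.

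Further genes of the pathway were described from a list of 109 genes outside the symbol rule. Of these, 36 (33.0%) had a site in MDA-468 and 16 (14.7%) had one in MCF-10A, beside 22.4% and 15.2% of protein-coding genes. Sites in both lists were found in 11 (10.1%), in MDA-468 only in 25 (22.9%) and in MCF-10A only in 5 (4.59%), beside 12.3%, 10.1% and 2.87% of protein-coding genes. In the authors' deposited table, 5 of the 109 (4.59%) had a row higher in MDA-468 and 6 (5.50%) had a row lower in MDA-468, beside 1.47% and 5.21% of protein-coding genes. None of these shares was tested. With a common limit of 1e-10 on the peak p-value, 18 of the 109 had a site in MDA-468, near the 16.2% of protein-coding genes. KREMEN1, a surface receptor for DKK proteins, had 4 sites in each line, and all 4 overlapped, and the authors' deposited table lists 1 of them as lower in MDA-468 (log2 fold change -1.89, false discovery rate 3.63e-05 by exomePeak). APC2, a relative of APC, had 4 sites in MDA-468 only, the strongest with a peak p-value of 7.9e-12. The R-spondin genes RSPO1 (3 sites) and RSPO4 (2), whose products act through LGR receptors, and VANGL2 (2 sites), a planar polarity gene, also had sites in MDA-468 only. NKD1 and NKD2, which bind Dishevelled and damp the signal, had 3 and 2 sites in MDA-468, against 1 and 0 in MCF-10A.

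Beta-catenin partners and branches of the pathway went both ways in the authors' deposited table. The co-activator gene CREBBP had 2 rows higher in MDA-468 (log2 fold change 2.15 and 3.11). The planar polarity genes CELSR1 (2.52) and PRICKLE3 (3.04) and the phospholipase gene PLCB3 (2.62) of the authors' deposited table were also higher in MDA-468. The rows of the authors' deposited table that were lower in MDA-468 belonged to BCL9 (-2.16), which links beta-catenin to its co-activators, TBL1X (-2.69), the casein kinase gene CSNK1G1 (-1.68) and the receptor-like gene PTK7 (-3.65), which had no site in either list. PRKCA, a protein kinase C gene, had 1 row of each direction in the authors' deposited table (5.13 and -1.35). Of the other genes with at least 2 sites in one list, CHD8 (2) and SMARCA4 (3), both of chromatin remodelling, had sites in MDA-468 only, and PPARD had 2 in MDA-468 and 1 in MCF-10A.

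The site lists also hold genes used as markers of cells that these cultures should lack, though a site gives no transcript level. Of 8 markers of stroma, blood and vessels, 5 had a site, 3 of them in both lists (PTPRC, CD68 and PECAM1) and 2 in MDA-468 only. Of 7 basal markers 5 had a site, all in MDA-468 only, and of 8 luminal or simple epithelial markers 1 had a site in MDA-468 only and 2 in MCF-10A only. Among the keratin genes, KRT14 had a site in MDA-468, while KRT5, KRT8, KRT17, KRT18 and KRT19 had none in either list. The share of protein-coding genes with a site was 10.1% for MDA-468 only, 2.87% for MCF-10A only and 12.3% for both. The part of other cells or of read placement in the Wnt sites was not tested.

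Median transcript composition differed between the Wnt genes with sites in both lists and those with sites in MDA-468 only, with overlapping ranges. Taking the longest protein-coding transcript of GENCODE v29, the 6 genes with sites in MDA-468 only had a median length of 3125 nt and a GC content of 62.0%, the 9 with sites in both lists 4259 nt and 53.5%, and the 39 with none 3355 nt and 52.8%. Over all protein-coding genes, the medians were 3595.5 nt and 56.7% for sites in MDA-468 only, 4485.5 nt and 46.0% for sites in both lists, and 2657 nt and 49.0% for genes with no site. In both sets the genes with sites in MDA-468 only had the highest GC content, and the Wnt genes had a higher one than all genes in each of these classes. The order of lengths was not the same, since genes with sites in MDA-468 only were longer than genes with no site over all genes but not in the Wnt set. Among the Wnt genes with a site, GC content was highest in WNT1 (67.4%) and lowest in FZD3 (34.9%). It ran from 52.1% to 67.4% in the genes with sites in MDA-468 only. In the genes with sites in both lists it ran from 34.9% to 64.9%. These differences were not tested.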

How the data were processed

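Per the submitters' processing notes, reads were aligned with TopHat to hg19. The title lines of the differential table name Tophat2, exomePeak and UCSC known genes, per the file headers. Not given in the sources used here are the rule for a consistent site, the pooling of replicates and the use of the technical replicates. The site lists carry a peak p-value deposited by the authors. The differential table holds a fold enrichment, a ratio of MeRIP over input deposited by the authors, and a log2 fold change between the lines deposited by the authors. Its other columns are log10 p-values and false discovery rates deposited by the authors, held here as scores. False discovery rates were computed as powers of 10 from the deposited logarithms.

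Sites were joined to genes by Entrez identifier and named through a RefSeq gene table (GRCh38.p14), which matched 5249 of 5280 identifiers in MDA-468 and 3677 of 3704 in MCF-10A. Sites overlapped when their exon blocks shared at least 1 bp on the same strand. Coordinates are those of the files (hg19), counted from 1. With 1 merged list a line, lists were described by counts beside all genes, with no test. No hg19 annotation was used here. A planned search of member transcripts for a repeat stretch is not reported here. The overlap procedure was tested on simulated data. The members and lists were chosen with earlier results of these data known. Every Wnt gene with a site or a differential row was named. Of the further pathway genes, those with a differential row or at least 2 sites in one list were named, and FRZB besides. A few members were singled out after their values were seen. Alternatives were other limits on the p-value, list length, site length, overlap and differential threshold. Python 3.11.15 with pandas 2.3.3, numpy 2.4.6 and matplotlib 3.10.9 was used.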

Additional observations from a re-analysis of the deposited data

How the results depend on the processing

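In 42 of 52 recomputed values the count stayed within 1.5 times the reported one. Part of these could not move. The MCF-10A list was unchanged when the MDA-468 list was reduced and when the largest MCF-10A p-value was the limit. The 42 are therefore no measure of stability. The number of Wnt genes in MDA-468 only, 6 as reported, was 2 with a common limit of 1e-10 on the peak p-value and 2 with the MDA-468 list reduced to 5194 sites. The share of protein-coding genes in MDA-468 only, 10.1% as reported, was 5.44% and 5.08% under these settings. The Wnt count was 3 with sites of at least 100 nt (7.45% of protein-coding genes) and 3 with the largest MCF-10A p-value as the limit in both lists (7.87%), an alternative chosen after seeing the data. With the common limit and with the reduced list, the Wnt sites of MDA-468 numbered 13 in place of 20, and WNT1 and TCF7L1 were the genes left in MDA-468 only. Further pathway genes with a site in MDA-468 numbered 18 with the common limit and 17 with the reduced list, in place of 36. These losses follow from fewer MDA-468 sites. The 9 overlapping sites of each list stayed at 9 under every overlap rule and limit run on them. Most of these settings could not lower the count. The largest peak p-value among these sites was 2e-12 in MDA-468 and 1.3e-19 in MCF-10A, below every limit. Whole spans and leaving out the strand can only add overlaps. Only the rules that ask for at least 50% overlap could have lowered it. Of the authors' deposited table, the Wnt sites lower in MDA-468 numbered 2 with a false discovery rate under 0.001 (WNT7B and FZD4) and 2 with an absolute log2 fold change of at least 2 (WNT7B and AXIN2), in place of 5. No replicate could be left out, since the files hold no value per library. No paired analysis was possible because the files hold 1 merged list for each line. Depth is unknown, which limits every count of sites.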

Other observations

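FZD10-AS1, a long noncoding RNA gene on the strand opposite to FZD10, had 1 site in MCF-10A, at chr12:130638018-130639041 (hg19, minus strand, 2 exon blocks of 150 nt in all, the authors' peak p-value 2e-21), and none in MDA-468. FZD10 itself had its 1 site in MDA-468 only, 9095 nt away. The antisense genes WNT5A-AS1 and LEF1-AS1 and the divergent transcript FZD4-DT had no site in either list.

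In the RefSeq promoter table (GRCh38.p14, the stretch around each gene's start), the TCF core motif CTTTGA on either strand stood in 1 of the 48 promoters listed for 38 Wnt genes, that of DKK1, and in 10.9% of the 22199 promoters of protein-coding genes. It stood in none of the 12 promoters of Wnt genes with an m5C site and in 1 of the 36 (2.78%) of Wnt genes without one. The 12 promoters cover 9 of the 15 Wnt genes with a site, and the rest, AXIN2 among them, have no promoter listed. With so few promoters these shares were not tested.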
